A study of Homo sapiens with 2 samples.

Results

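The genes described here repair DNA at or behind the replication fork, by homologous recombination, the Fanconi anaemia pathway and mismatch repair, together with the checkpoint kinases that direct this work and a smaller set that joins broken ends directly. They were taken from a list of 32 genes, by every probe set that the platform annotation assigns to one of them alone. Of the 32 genes, 29 had such a probe set and all 29 lay above the floor, a signal of 56.9, in both samples; the array as a whole named 19775 genes, and the 10314 of them that reached the floor in 1 or both samples are called measured. FANCA, FANCD2 and BRCA2 had no probe set named for them alone and were not analysed here. The 29 genes had 66 probe sets, of which 52 lay above the floor in both samples, 1 in 1 sample and 13 in neither.

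Transcript levels were measured on Affymetrix expression arrays in 1 sample of HL60 cells given eltrombopag at 3 µg/ml for 36 h and in 1 sample of untreated HL60 cells. HL60 is a human promyelocytic leukaemia cell line, whose cell type is labelled hematopoietic stem; eltrombopag is a small molecule that activates the thrombopoietin receptor and also chelates iron. Both samples grew in RPMI with 10% serum, and no vehicle and no culture time are given for the untreated sample. With 1 array per group there is no test of the treatment and no error between replicates, so every ratio below describes 2 arrays, and drug and culture cannot be told apart.

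Homologous recombination copies a broken stretch from the sister chromatid. BRCA1 with its partner BARD1 favours resection of the break, PALB2 bridges BRCA1 to BRCA2, and BRCA2 and a set of paralogs of the recombinase load that recombinase onto the resected strand. The Fanconi core complex ubiquitinates FANCI and FANCD2 where a crosslink blocks a fork, and MSH6 finds mismatches left by the polymerases. End joining needs no template: the Ku heterodimer of XRCC6 and XRCC5 caps the break and recruits the kinase PRKDC. Many recombination and Fanconi genes are transcribed with the cell cycle, through E2F and NF-Y sites near their starts, and are most abundant in S and G2 phase.

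Promoter windows of 250 bases before to 50 after the annotated start, from RefSeq on GRCh38.p14, were found for 28 of the 32 genes, 25 of them with a probe set. The table lists several windows for 9 of these 25, and the first one listed was used for each gene. The windows were searched on both strands for TTTCCCGC, TTTCGCGC, TTTGCCGC or TTTGGCGC (letters of E2F sites), CCAAT (NF-Y), TTTGAA (CHR, the cell cycle genes homology region) and GGGCGG (Sp1). The windows below belong to the 2 members with the lowest ratios of eltrombopag over untreated (RAD51AP1 and PALB2), to 2 of the 3 with the highest (BLM and RAD50), and to FANCC, the 1 member with 2 E2F matches. Capitals mark matches to the E2F, NF-Y and CHR letters; each window reads 5′ to 3′ along its gene.
RAD51AP1, chr12:4538640-4538939, plus strand: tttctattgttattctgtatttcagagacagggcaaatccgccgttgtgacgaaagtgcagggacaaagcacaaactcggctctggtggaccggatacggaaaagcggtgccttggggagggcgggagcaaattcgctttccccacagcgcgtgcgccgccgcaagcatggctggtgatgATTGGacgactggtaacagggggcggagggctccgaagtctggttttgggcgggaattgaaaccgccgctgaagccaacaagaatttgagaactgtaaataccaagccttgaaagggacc
PALB2, chr16:23641261-23641560, minus strand: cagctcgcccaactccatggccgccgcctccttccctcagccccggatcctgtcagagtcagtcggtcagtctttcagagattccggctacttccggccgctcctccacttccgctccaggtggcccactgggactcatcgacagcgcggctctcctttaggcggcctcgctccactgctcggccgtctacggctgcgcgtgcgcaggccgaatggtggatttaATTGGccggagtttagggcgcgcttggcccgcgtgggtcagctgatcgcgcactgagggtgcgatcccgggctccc
BLM, chr15:90717096-90717395, plus strand: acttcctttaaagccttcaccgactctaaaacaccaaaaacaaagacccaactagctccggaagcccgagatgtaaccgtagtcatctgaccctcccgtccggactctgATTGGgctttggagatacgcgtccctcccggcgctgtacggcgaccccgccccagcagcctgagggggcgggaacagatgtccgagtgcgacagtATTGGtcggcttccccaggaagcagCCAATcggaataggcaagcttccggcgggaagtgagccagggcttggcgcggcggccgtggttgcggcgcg
RAD50, chr5:132556727-132557026, plus strand: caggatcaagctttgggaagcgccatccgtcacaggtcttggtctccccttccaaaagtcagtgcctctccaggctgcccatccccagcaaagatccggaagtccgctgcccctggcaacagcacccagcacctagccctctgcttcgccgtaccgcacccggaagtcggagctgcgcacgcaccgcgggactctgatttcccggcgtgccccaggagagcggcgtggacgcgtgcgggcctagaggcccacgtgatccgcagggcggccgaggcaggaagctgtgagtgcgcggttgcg
FANCC, chr9:95317660-95317959, minus strand: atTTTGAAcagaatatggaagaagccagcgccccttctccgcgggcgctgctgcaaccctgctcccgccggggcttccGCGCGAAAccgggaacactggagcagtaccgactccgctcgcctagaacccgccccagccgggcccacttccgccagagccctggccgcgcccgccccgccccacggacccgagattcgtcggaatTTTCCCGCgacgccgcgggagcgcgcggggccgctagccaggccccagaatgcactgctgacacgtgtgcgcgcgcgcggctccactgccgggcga
E2F letters stood in 5 of the 25 windows (20.0%), those of FANCC, XRCC2, EXO1, MSH6 and XRCC6, against 5.64% of the 8500 windows of measured genes and 3.33% of all 27305. NF-Y letters stood in 13 of 25 (52.0%), against 37.4% of windows of measured genes and 35.7% of all windows, with 5 matches in XRCC3, 3 each in BLM and CHEK2, and 2 each in FANCF, PMS1 and RAD54L. CHR letters stood in 2 of 25 (8.0%), ATM and FANCC, against 10.1% of windows of measured genes, and Sp1 letters in 21 of 25 (84.0%), against 70.1% of windows of measured genes. Of 41 windows of genes for replication and nucleotide supply, a list described below, 48.8% held E2F letters and 58.5% NF-Y letters. CHR letters stood in 2.44% of these 41 and Sp1 letters in 68.3%. The 5 members with E2F letters ran from a log2 ratio of -0.28 for EXO1 to 0.05 for XRCC6. The windows of RAD51AP1 and PALB2 held no exact E2F match, but each held 1 NF-Y match. The search counted exact letters only, so sites that differ from them would be missed. The part of E2F sites in the ratios was not tested. NF-Y letters were in 6 of 8 windows of members with a ratio above 0 and in 7 of 17 of those below 0. A match is a run of letters and not a measured binding site, and the table's start may not be the one used in these cells. The window used for BRCA1 is the first of several and lies far from the start commonly used for that gene. When every listed window of a gene was searched, a choice made after seeing the data, E2F letters stood in 6 of 25 genes, with UNG added, against 6.92% of measured genes. NF-Y letters then stood in 14 (56.0%, with BRCA1 added), against 43.9% of measured genes, CHR letters in 3 (12.0%, with UNG added), against 14.1%, and Sp1 letters in 21 (84.0%), against 76.8%. UNG, at a ratio of -0.45, then lay below the other E2F carriers. Matches of different motifs overlapped in 0 pairs among the 25 windows and Sp1 matches overlapped each other in 3 pairs.

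**Figure D1:**
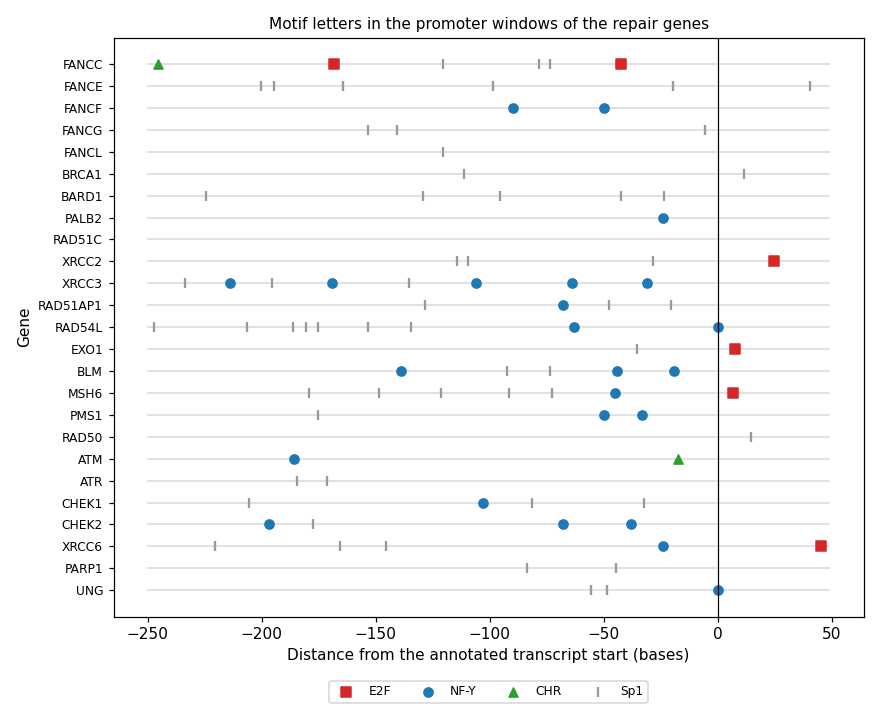
Matches to the E2F, NF-Y, CHR and Sp1 letters in the windows of 25 repair genes (rows, ordered by role), 1 window per gene, by distance in bases from the annotated transcript start; each symbol is the middle of 1 match. The 5 E2F carriers are FANCC, XRCC2, EXO1, MSH6 and XRCC6, and RAD51C has no match of any kind.

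Across all members the differences were small. No member's brightest probe set reached a 2-fold difference in either direction: 0 of 29 were lower by 2-fold or more, where 2.27% of measured genes were, and 0 of 29 were higher by as much, where 0.65% were. Log2 ratios of eltrombopag over untreated ran from -0.91 for RAD51AP1 to 0.55 for NBN, with a median of -0.20. Ratios lay below 0 for 20 members and above 0 for 9, that is 69.0% below 0 beside 63.4% of all measured genes, of which 36.6% lay above 0 and whose median was -0.12. At 1.5-fold, 2 of 29 were lower (11.8% of measured genes) and 0 of 29 higher (3.49%). These shares are near or under those of the whole array. Fewer cells of a kind, such as cells in S phase, and less RNA per cell cannot be told apart in such samples.

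The size of these ratios can be set against the only error that the arrays hold, the disagreement between probe sets of 1 gene. For the 2 brightest probe sets above the floor of 4374 genes, the log2 ratios differed by a median of 0.21, and by 0.60 at the 90th percentile. Of the 29 members, 19 had a ratio larger in size than that median and 2, RAD51AP1 and PALB2, larger than that 90th percentile. Sizes were taken from 0 and not from the all-gene median of -0.12. Taken from the all-gene median, NBN at 0.67, BLM at 0.65 and RAD50 at 0.62 also passed the 90th percentile. RAD51AP1 at -0.79 and PALB2 at -0.72 passed it as well. The share of all measured genes past each size was not counted. Their first quartile, -0.37, also lies past the median disagreement of 0.21 in size, so 19 of 29 is not shown to exceed the array's share. The disagreement between probe sets leaves out the spread between cultures, which was not measured. Of 13 members with more than 1 probe set above the floor on both arrays, 11 had ratios of 1 sign in all of them, and FANCI and RAD50 did not. Over the array, the 2 brightest probe sets shared a sign in 72.5% of genes, and the median disagreement among the 13 members was 0.26.

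**Figure D2:**
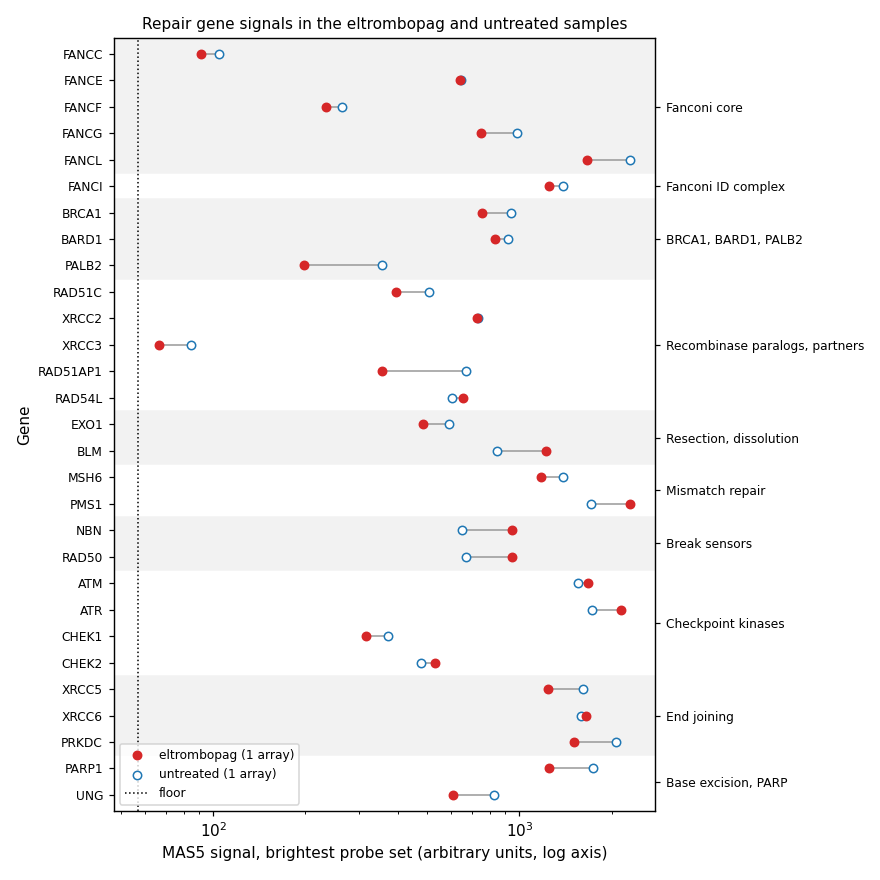
MAS5 signal (arbitrary units, log axis) of the brightest probe set of each of 29 repair genes, in the eltrombopag sample (filled) and the untreated sample (open), 1 array each; the dotted line is the floor of 56.9. RAD51AP1 and PALB2 show the widest gaps to the left and NBN, BLM and RAD50 the widest to the right.

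Of the 5 Fanconi core genes, FANCL and FANCG were lower and the others lay near the array's median. FANCL, the ubiquitin ligase subunit of the complex, had a signal of 1667 in the eltrombopag sample and 2306 in the untreated sample, 1.38-fold lower. FANCG, a scaffold subunit, had 751 in the eltrombopag and 979 in the untreated sample, 1.30-fold lower. These were the largest differences in the complex. FANCC, which contacts FANCE and FANCF, had 91.0 in the eltrombopag and 104.7 in the untreated sample, and FANCF, an adaptor, 233.8 and 262.4 in the same order, log2 ratios of -0.20 and -0.17, within 0.10 of the all-gene median. The second FANCF probe set had 103.2 in the eltrombopag and 110.8 in the untreated sample, a ratio of -0.10. FANCE, which links the core complex to FANCD2, was equal, at 641.3 in the eltrombopag and 643.0 in the untreated sample. The median of the 5 core genes was -0.20, or -0.08 relative to all measured genes.

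FANCI, the ubiquitinated partner of FANCD2, gave probe sets that disagreed. The brightest had 1249 in the eltrombopag and 1387 in the untreated sample, a second 995 and 971, and the dimmest 100.8 and 188.6. Their log2 ratios were -0.15, 0.03 and -0.90, a spread of 0.94, so FANCI has no settled direction.

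In the BRCA1 group, PALB2 was lowest. PALB2 had a signal of 198.3 in the eltrombopag and 355.4 in the untreated sample, 1.79-fold lower, in its 1 probe set; 4.4% of measured genes had a ratio as low or lower. BRCA1 had 754 in the eltrombopag and 937 in the untreated sample, a log2 ratio of -0.31, and -0.58 in its dimmer probe set. BARD1, the ubiquitin ligase partner of BRCA1, had 831 in the eltrombopag and 918 in the untreated sample, a ratio of -0.14, with -0.41 and -0.38 in 2 dimmer probe sets. All 6 probe sets of these 3 genes were below 0, those of the BRCA1 and BARD1 heterodimer by less than that of PALB2. Of all measured genes 63.4% lay below 0, with a median of -0.12, close to BARD1's brightest probe set.

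The genes that load the recombinase or act on its filament were mixed. RAD51AP1, a DNA-binding protein that stimulates the recombinase, had 355.6 in the eltrombopag and 669.7 in the untreated sample, 1.88-fold lower, the lowest ratio of all members; 3.3% of measured genes had one as low or lower. RAD54L, a translocase that drives strand exchange, had 656 in the eltrombopag and 602 in the untreated sample, 1.09-fold higher. Both values rest on 1 probe set each, and these 2 partners of the recombinase lay on opposite sides of 0. Among the paralogs of the recombinase, RAD51C had 394.4 in the eltrombopag and 507.1 in the untreated sample, a ratio of -0.36, and a dimmer probe set at 90.3 and 189.0 was 2.09-fold lower. XRCC3, the partner of RAD51C, had 66.4 in the eltrombopag and 84.4 in the untreated sample, a ratio of -0.35 just above the floor. XRCC2, which works in the complex with RAD51C and other paralogs, was equal, at 729 in the eltrombopag and 733 in the untreated sample. So RAD51C and XRCC3 lay together below the array's median and XRCC2 above it.

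BLM and EXO1, which resect breaks, parted. BLM, the helicase mutated in Bloom syndrome that also dissolves double Holliday junctions, had 1218 in the eltrombopag and 845 in the untreated sample, 1.44-fold higher. EXO1, an exonuclease of both resection and mismatch repair, had 482.7 in the eltrombopag and 587.0 in the untreated sample, a ratio of -0.28. RMI1 and RMI2, which hold BLM in the dissolution complex and come from the list of other recombination genes, lay on the other side of 0 from BLM. RMI2 had 328.1 in the eltrombopag and 794 in the untreated sample, 2.42-fold lower, and RMI1 611 and 1113, 1.82-fold lower. TOP3A, the topoisomerase of that complex, named after its values were seen, gave 0.11 in its brightest and -1.03 in a dimmer probe set.

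The mismatch repair genes also parted. PMS1, a MutL homolog, had 2292 in the eltrombopag and 1718 in the untreated sample, 1.33-fold higher, and a second probe set near the floor had 59.4 and 54.0. MSH6, a subunit of the mismatch-binding dimer, had 1176 in the eltrombopag and 1388 in the untreated sample, a ratio of -0.24, while its dimmer probe set, at 94.1 and 213.1, was 2.26-fold lower. With RAD51C, that made 2 of the 52 member probe sets above the floor on both arrays at least 2-fold lower, beside 2.21% of all such probe sets, and 0 at least 2-fold higher, beside 0.616%. Both of these probe sets are the dimmer of their gene and have the suffix _s_at, which marks probes that can match several transcripts.

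The break sensors NBN and RAD50 and the apical checkpoint kinases ATM and ATR had ratios above 0 in their brightest probe sets, and 0 of the 4 reached 1.5-fold (3.49% of measured genes did). NBN, the scaffold of the complex that RAD50 forms with MRE11, had 946 in the eltrombopag and 648 in the untreated sample, 1.46-fold higher. Its other 3 probe sets above the floor gave log2 ratios of 0.63, 0.60 and 0.09, so all 4 were above 0. RAD50, the ATPase that tethers broken ends, had 949 in the eltrombopag and 671 in the untreated sample, 1.41-fold higher, but its dimmer probe sets gave only 0.15 and -0.09. MRE11, the nuclease of the complex, named after its values were seen, had 284.2 in the eltrombopag and 240.2 in the untreated sample, ratios of 0.24 and, in a dimmer probe set, 0.09. ATR, the kinase of stalled forks, had 2146 in the eltrombopag and 1727 in the untreated sample, a ratio of 0.31, and a second probe set at 737 and 399.4 gave 0.88. ATM, the kinase activated at breaks, had 1678 in the eltrombopag and 1550 in the untreated sample, a ratio of 0.11, with 0.17, 0.49 and 0.36 in its other probe sets. All 6 probe sets of ATM and ATR above the floor were above 0, where 36.6% of measured genes were. The median of NBN, RAD50, ATM and ATR was 0.41, or 0.53 relative to all measured genes; these 4 were put together after their values were seen.

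The effector kinases CHEK1 and CHEK2 lay on opposite sides of 0. CHEK1, the target of ATR, had 315.1 in the eltrombopag and 373.4 in the untreated sample, a ratio of -0.24, and its other 2 probe sets above the floor gave -0.38 and -0.57. CHEK2, the target of ATM, had 528 in the eltrombopag and 478.2 in the untreated sample, a ratio of 0.14 in 1 probe set. CHEK1 was thus below 0 in every probe set above the floor and ATR above 0 in every one.

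**Figure D3:**
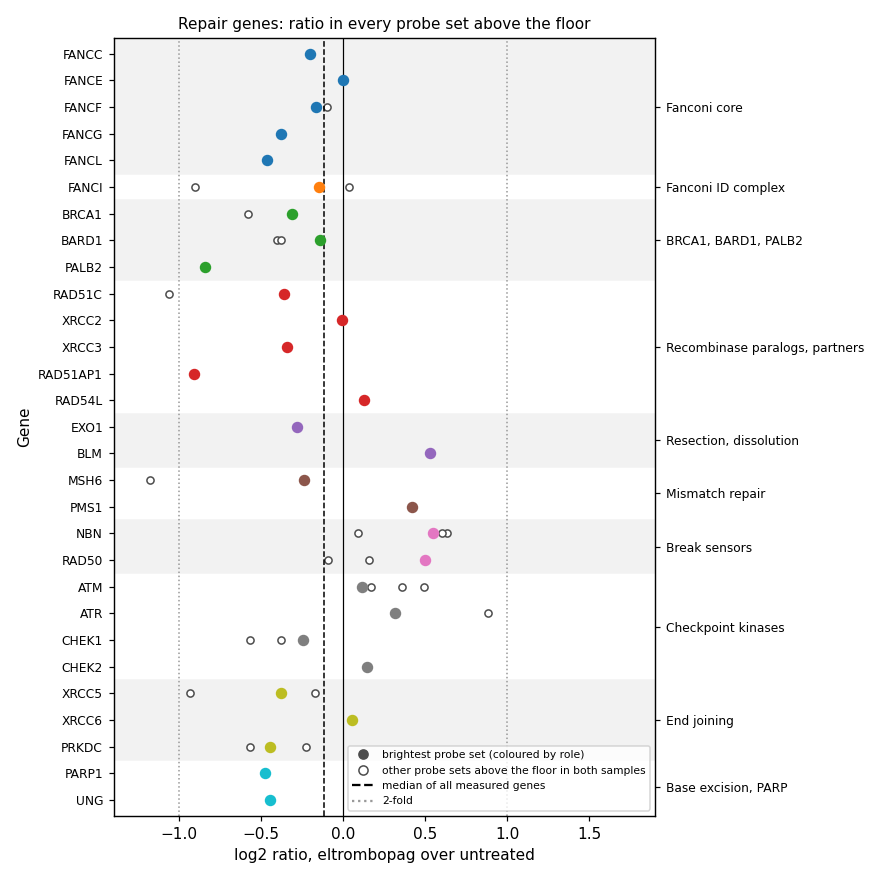
Log2 ratio of eltrombopag over untreated for each repair gene, in its brightest probe set (filled, coloured by role) and in every other probe set above the floor on both arrays (open). The dashed line is the median of all measured genes at -0.12 and the dotted lines mark 2-fold; no filled point reaches them, and the open points of RAD51C and MSH6 pass the lower one.

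Of the end joining genes, PRKDC and XRCC5 were lower and XRCC6 was not. PRKDC, the catalytic subunit of the DNA-dependent protein kinase, had 1508 in the eltrombopag and 2061 in the untreated sample, 1.37-fold lower, with ratios of -0.57 and -0.23 in dimmer probe sets. XRCC5, the larger Ku subunit, had 1240 in the eltrombopag and 1613 in the untreated sample, 1.30-fold lower, with -0.93 and -0.17 in dimmer probe sets. XRCC6, the smaller Ku subunit, had 1648 in the eltrombopag and 1589 in the untreated sample, a ratio of 0.05 in its 1 probe set above the floor. All 3 probe sets of PRKDC lay below 0, as did 63.4% of measured genes, opposite to the 6 of ATM and ATR, which are kinases of the same family.

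PARP1 and UNG act on base damage and single-strand breaks. PARP1, which marks breaks with poly(ADP-ribose), had 1250 in the eltrombopag and 1743 in the untreated sample, 1.39-fold lower. UNG, which removes uracil, had 605 in the eltrombopag and 824 in the untreated sample, 1.36-fold lower. Each rests on 1 probe set, and both ratios, -0.48 and -0.45, lay below the first quartile of all measured genes at -0.37.

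Replication-coupled repair and end joining were then compared as groups. The 18 analysed genes of the Fanconi, recombination and mismatch repair groups had a median log2 ratio of -0.22, with a range from -0.91 to 0.53. Of the 18, 15 lay below 0 (63.4% of measured genes did) and 3 above 0. These 15 include FANCE at -0.004 and XRCC2 at -0.009, which were equal, and FANCI, whose probe sets differed in sign. The 3 end joining genes had a median of -0.38, with 2 below 0 and 1 above. The difference of the medians was 0.16, replication-coupled minus end joining, and the end joining ratios, from -0.45 to 0.05, lay inside the range of the replication-coupled ones. The sign of that difference turned on which end joining genes were counted. With the 12 measured genes of the list of other end joining factors added, the end joining median became 0.05 and the difference -0.27. Relative to all measured genes, the replication-coupled median lay at -0.10 and that of the 3 end joining genes at -0.26. With 1 array per group, this difference has no test.

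The other end joining factors were mixed in direction. Of these 12, 8 had a ratio above 0 (36.6% of measured genes did) and 4 below, and the median was 0.10. Past 2-fold were 0 of the 12, where 2.27% of measured genes were lower and 0.65% higher by as much. XRCC4, the scaffold of the ligation complex, had 89.4 in the eltrombopag and 140.3 in the untreated sample, a ratio of -0.65. LIG4, its ligase, had 1175 in the eltrombopag and 1611 in the untreated sample, a ratio of -0.46, and -0.65 in a second probe set. POLM, a gap-filling polymerase, had 108.8 in the eltrombopag and 77.3 in the untreated sample, a ratio of 0.49. RIF1, which holds back resection, had -0.41 in its brightest probe set and from -0.97 to 0.17 in its others. XRCC4 and LIG4 thus lay on the side of PRKDC and XRCC5.

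Among other Fanconi genes, 11 of 15 measured had a ratio below 0 (63.4% of measured genes did), and the median was -0.37. In this list 0 passed 2-fold, where 2.27% of measured genes were lower and 0.65% higher by as much. The lowest were MAD2L2, a translesion synthesis and end protection factor, at 147.4 in the eltrombopag and 285.7 in the untreated sample (1.94-fold lower), and BRIP1, the helicase that binds BRCA1, at 344.3 and 641.6 in the same order (1.86-fold lower). CENPX, a DNA-binding partner of FANCM, and FAAP100, a core complex subunit, were 1.73-fold and 1.66-fold lower. At 1.5-fold, 6 of the 15 were lower, beside 11.8% of measured genes and 2 of the 29 members. Of 25 measured other recombination genes, 18 were below 0 (63.4% of measured genes were), and the median was -0.20. RMI2 alone of these 25 was at least 2-fold lower (2.27% of measured genes were), and 0 were at least 2-fold higher (0.65%). PSMC3IP, a cofactor of strand invasion, was 1.71-fold lower, and RAD52, an annealing protein, 1.78-fold higher in its brightest probe set, with a ratio of 0.30 in the other. Of 18 measured other checkpoint genes, 13 were below 0 (63.4% of measured genes were) and 0 passed 2-fold. WEE1, which inhibits CDK1, was lowest at 387.5 in the eltrombopag and 773 in the untreated sample, 1.995-fold lower. TIPIN and CLSPN, fork proteins that help ATR activate CHEK1, and PKMYT1, a kinase that like WEE1 inhibits CDK1, had ratios of -0.62, -0.62 and -0.55. Of 7 other mismatch repair genes listed, MSH3 alone was measured, with ratios of 0.04 and -0.22.

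The members differed less than the genes of DNA synthesis. Of 48 measured genes for replication and nucleotide supply, 9 were lower by 2-fold or more (2.27% of measured genes were) and 0 higher by as much (0.65%). Of the 48, 41 lay below 0 (63.4% of measured genes did), with a median of -0.56, against -0.20 for the 29 repair members. PCNA, the sliding clamp that recombination and mismatch repair also use, had 1060 in the eltrombopag and 2455 in the untreated sample, 2.32-fold lower; UHRF1, GINS2, CCNE2 and RRM2 were the others furthest below. Of 29 measured mitosis genes, 0 passed 2-fold, 22 were below 0 (63.4% of measured genes were) and the median was -0.21, close to that of the members. The part of these replication genes' difference in the repair ratios was not tested.

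**Figure D4:**
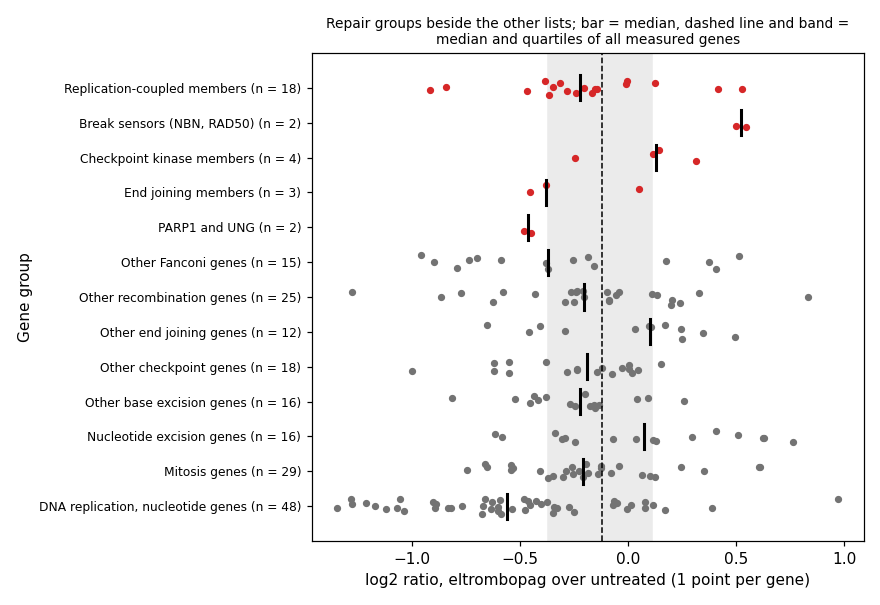
Log2 ratios of eltrombopag over untreated, 1 point per gene, for the repair members by group (red) and for the other gene lists (grey); bars are medians, and the dashed line and band are the median and quartiles of all measured genes. The 3 end joining genes lie within the spread of the 18 replication-coupled genes, the break sensors lie at 0.50 and 0.55, and the replication genes have the lowest median at -0.56.

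Facts of the 2 arrays bear on these ratios. The median signal was 31.5 in the eltrombopag and 32.8 in the untreated array, and the all-gene median of -0.12 moved by 0.06 to 0.11 when the arrays were rescaled. Under 4 scalings, the deposited one included, 27 of 29 members kept the sign of their ratio, and FANCE and XRCC2, which were equal as deposited, moved to 0.09 and 0.08 at most. The summed signal of the 17 promyelocyte markers with a probe set was 19357 in the eltrombopag and 19548 in the untreated sample. SRGN, at 7685 in the eltrombopag and 7160 in the untreated sample, and MYB, at 5855 and 4349, made up most of it. Both were higher in the eltrombopag sample, so the sum does not show the level of the other markers. Of these 17 markers, 14 were measured, with MPO, the granule peroxidase, at 1467 in the eltrombopag and 1556 in the untreated sample. Of these 14, 10 had a ratio below 0 (63.4% of measured genes did) and 2 were lower by 2-fold or more (2.27% of measured genes were). These were CEBPA, a granulocyte transcription factor, at 279.1 in the eltrombopag and 818.7 in the untreated sample (2.93-fold lower), and CSF3R, a granulocyte growth factor receptor, at 251.3 and 564.4 in the same order (2.25-fold lower). ELANE, SPI1 and LYZ, which promyelocytes also express, lay below the floor in both samples. Plasma cell markers were present too: 15 of 18 were measured, and the summed signal of the 18 was 15926 in the eltrombopag and 25011 in the untreated sample. JCHAIN, at 4866 in the eltrombopag and 7972 in the untreated sample, made up most of it with CCND2 and XBP1. CCND2 had 3946 and 4712, and XBP1 3268 and 3441, in the same order. This sum too does not show the level of the other markers. Of the 15 measured plasma cell markers, 6 were at least 2-fold lower (2.27% of measured genes were). IRF4 was furthest, with 131.2 in the eltrombopag and 676.9 in the untreated sample. CD27, IGHM and IGHG1 lay below the floor. B-cell, T-cell and NK, erythroid, and monocyte and megakaryocyte markers were measured in 3 of 11, 1 of 13, 3 of 8 and 1 of 9 genes. The part of the promyelocyte and plasma cell markers in the repair ratios was not tested.

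**Figure D5:**
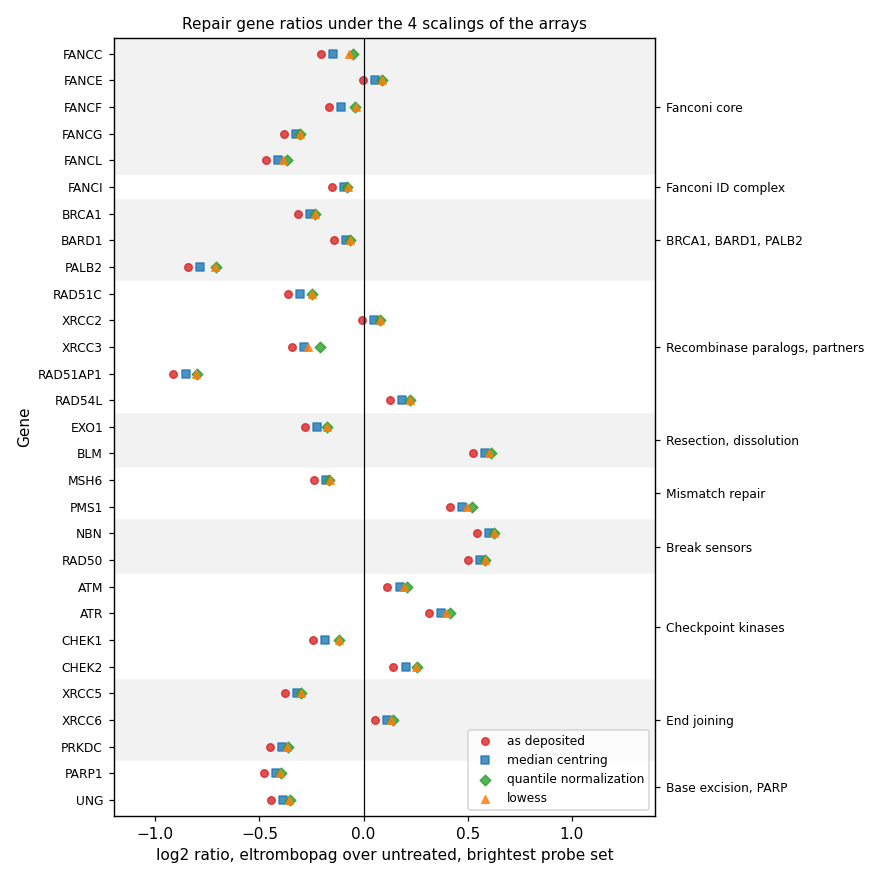
Log2 ratio of each repair gene's brightest probe set, eltrombopag over untreated, with the arrays as deposited, median centred, quantile normalized and lowess normalized. Rescaling moves the members to the right together, the order of the extremes stays RAD51AP1 at the low and NBN at the high end, and only FANCE and XRCC2 cross 0.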

How the data were processed

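The authors deposited linear signal intensity values, 1 for each probe set on each array. The submitters' processing notes name MAS5; no version, scaling target or detection call is given in the sources used here. Per the labels' protocols, biotinylated cRNA was made from about 5 µg of Trizol-extracted total RNA. MAS5 corrects background within each array, so low signals have large relative error; 1 array per group limits the precision.

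Of 54613 probe sets, 41091 had 1 gene in the platform annotation, 1801 several, and 11721 were not listed; 41037 matched the RefSeq table of GRCh38.p14 by gene identifier, which changed 0 symbols. Values were kept as deposited. Signals under the 60th percentile of both arrays pooled (56.9) were raised to it before log2 ratios, eltrombopag over untreated, were taken. A gene is given by its probe set of highest mean log2 signal. Lists are described by counts and medians beside all measured genes. All members are named, with every probe set above the floor. Other lists name up to 4 genes of largest ratio and any past 2-fold. The replication and marker lists are exceptions, where the choice differs, as is the mitosis list, where no gene is named. The members and lists were chosen with earlier results of these data known.

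The alternatives tried were lowess (span 0.3), quantile normalization and median centring, a floor at the 50th percentile, at the 75th or at 1, the mean over probe sets, omission of _x_at and _s_at probe sets, genes above the floor in both samples alone, thresholds of 1.5-fold and 3-fold, the mean in place of the median, and wider groups. The calls were tested on simulated data. Python 3.11.15, pandas 2.3.3, numpy 2.4.6 and statsmodels 0.14.6 were used.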

Additional observations from a re-analysis of the deposited data

How the results depend on the processing

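The counts of members past 2-fold in either direction were 0 under each of the 3 other scalings, the other floors, the mean over probe sets, without _x_at and _s_at probe sets (21 members left) and a threshold of 3-fold; at 1.5-fold, 2 members were lower. A median is said to have moved when it changed by over 0.1 on the log2 scale. The replication-coupled median of -0.22 moved to -0.12 with lowess and -0.33 with the mean over probe sets. The end joining median of -0.38 moved to -0.17 without _x_at and _s_at probe sets, -0.26 with the mean in place of the median and 0.0525 with the other end joining genes added. The difference of the medians, 0.16, became 0.0054 without _x_at and _s_at probe sets, 0.0504 with means and -0.27, the opposite sign, with the other end joining genes added. Of single members' ratios, 215 of the recomputed values moved by up to 0.1 and 36 by more. Without the suffixed probe sets, ATR had 0.88, RAD50 0.15 and PMS1 0.06. NBN, the highest member, was then lost, as were FANCC, BRCA1, RAD51C, CHEK2, XRCC2, XRCC3 and UNG. The causes were not tested, except that wider groups and fewer probe sets follow from the alternatives' construction. No paired analysis was possible because each group has 1 sample. Signals near the floor, such as those of XRCC3 and FANCC, limit what can be read from their ratios, and both were lost with the floor at the 75th percentile.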

Other observations

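Nucleotide excision repair, which cuts out bulky lesions and is not tied to replication, lay on the other side of the array's median from most repair members. Of 16 measured genes, 9 had a ratio above 0 (36.6% of measured genes did) and 7 below, and the median was 0.08. Among them 0 passed 2-fold and 3 were at least 1.5-fold higher (3.49% of measured genes were). XAB2, which takes part in transcription-coupled repair, had 242.0 in the eltrombopag and 142.5 in the untreated sample, 1.70-fold higher. ERCC5, the endonuclease XPG, had 1840 in the eltrombopag and 1190 in the untreated sample, 1.55-fold higher. UVSSA, a partner of the stalled polymerase, was 1.54-fold higher, and RAD23B, which stabilises the damage sensor XPC, 1.53-fold lower.

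Most base excision genes lay below the array's median, and the genes of theta-mediated joining were mixed. Of 16 measured base excision genes besides PARP1 and UNG, 13 were below 0 (63.4% of measured genes were) and the median was -0.22. Past 2-fold were 0 of the 16, where 2.27% of measured genes were lower and 0.65% higher by as much. FEN1, the flap nuclease of Okazaki fragments and long-patch repair, had 1002 in the eltrombopag and 1763 in the untreated sample, a ratio of -0.82, and -1.58 in a second probe set. SMUG1, a uracil glycosylase, had a ratio of -0.52, and NTHL1 and OGG1, glycosylases of oxidised bases, -0.45 and -0.43. HMCES, which shields abasic sites in single-stranded DNA, had 144.4 in the eltrombopag and 271.7 in the untreated sample, 1.88-fold lower. LIG3, a ligase of single-strand break repair, had 0.52 and ratios above 0 in its 4 other probe sets, POLQ, the theta polymerase, 0.24 and -0.35 in its 2 probe sets, and XRCC1, the scaffold that binds LIG3, 0.05.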
